A study of Mus musculus with 3 samples.

Results

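The limb field identity transcription factors are 8 DNA-binding proteins that mark the early limb bud and set where it forms, which side of it is dorsal and how it grows. They were taken by symbol, Tbx4, Tbx5, Tbx15, Lhx2, Lhx9, Lmx1b, Twist1 and Sall4, and all 8 were found among the 31054 features of each library. They were followed in single cells of mouse forelimb buds at embryonic day 9.5, taken from Esco2fl/fl;Prrx1-CreTg/0 embryos (mutant 1 and mutant 2, 1 library each) and from Esco2fl/fl embryos (control 1, 1 library). All embryos carried floxed alleles of Esco2, which encodes a cohesin acetyltransferase, and the mutants also carried Cre under Prrx1 sequences, which are active in limb mesenchyme and not in the ectoderm over it. A library pooled 6 limb buds of 2 male samples and 1 female sample. No source used here says that the libraries came from separate litters, and p-values then measure a spread between libraries that may be technical.

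Limb buds form where lateral plate mesoderm switches on a T-box factor. Tbx5 starts the forelimb and its relative Tbx4 works mainly in the hindlimb, and both act upstream of Fgf10, the mesenchymal growth factor that signals to the ectoderm. Sall4, a zinc finger protein, acts with Tbx5 in the mouse forelimb. Lhx2, Lhx9 and Lmx1b are LIM-homeodomain proteins. Lhx2 and Lhx9 pass growth signals of the apical ectodermal ridge on to the mesenchyme, while Lmx1b gives mesenchyme its dorsal identity under the control of ectodermal Wnt7a. Twist1 is a basic helix-loop-helix protein of mesenchyme that pairs with E proteins and with Hand proteins, and Tbx15 is a T-box factor of skeletal precursors.

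After filtering, 12322 cells were kept, 3590 of mutant 1, 4684 of mutant 2 and 4048 of control 1, with median depths of 36295.5, 41449.5 and 23045.5 unique molecular identifiers (UMIs). Clusters were named from marker lists that leave out the 8 factors, and each name below stands for cells like that type. Limb mesenchyme held 1203 cells of mutant 1, 2209 of mutant 2 and 1107 of control 1, or 33.5, 47.2 and 27.3% of the kept cells. Surface ectoderm held 417, 277 and 281 cells, flank mesoderm 156, 91 and 154, and myogenic progenitors 189, 435 and only 42, each in the order mutant 1, mutant 2 and control 1. The labels call the samples mesenchymal, yet the libraries also held these classes, 384, 423 and 470 endothelial and 572, 442 and 384 erythroid cells, and 9 of 25 clusters stayed unnamed. Flank rests on 1 cluster, named by coelomic epithelium markers (Upk3b, Wt1, Krt19 and Lrrn4, 4 of 8 raised), whose leading genes include Krt8 and Krt18. Another cluster, which raised the flank markers Foxf1, Hand1 and Gata6, stayed unnamed because other lists lay close. Erythroid markers in the flank class summed to 7944 CPM (UMIs per 1000000 UMIs of a class in a library) in mutant 1. They summed to 542 CPM in mutant 2, against 398 CPM in control 1. As a check of the labels, the Cre feature had UMIs in 4.74 and 5.66% of mutant mesenchyme cells and in 0 of 1107 control cells, which allows a share of up to 0.271%. Esco2 itself stood at 23.5 and 21.6 CPM in mutant mesenchyme and 31.7 CPM in control mesenchyme, and its 3′ reads may lie outside the deleted part. Pairs of libraries shared between 65 and 117 barcodes, of which 18 or 19 a pair were kept.

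Levels are CPM of the UMIs summed over a class. Reads came from 3′ ends, so a level is compared between cells for 1 gene and not between genes. Limb mesenchyme had the highest level of 7 of the 8 factors in every library, and for those 7 the 3 mesenchyme values did not overlap those of the next class. The exception was Tbx4, at 0.480 CPM (27 UMIs) in control mesenchyme and 0.704 CPM (9 UMIs) in control flank. The exact 95% Poisson intervals of these values overlap, and with doublets kept all 8 factors were highest in mesenchyme. For Sall4 the gap was narrow, with 46.9 CPM in mutant 1 mesenchyme and 46.3 CPM in control ectoderm. Its intervals in mesenchyme and ectoderm overlapped within mutant 1 and within control 1. How many of all features were highest in mesenchyme, or did not overlap the next class, was not counted. The counts of factors are thus not read as a result about them. Where each factor stood next differed. Flank mesoderm came next for Tbx5 and Twist1, surface ectoderm came next for Lmx1b and Sall4, and the classes below mesenchyme overlapped for Lhx2, Lhx9 and Tbx15. With a class sum, fewer cells with a transcript and fewer transcripts per cell cannot be told apart, so shares of cells with a UMI are given as well, after thinning every cell to 10000 UMIs.

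**Figure D1:**
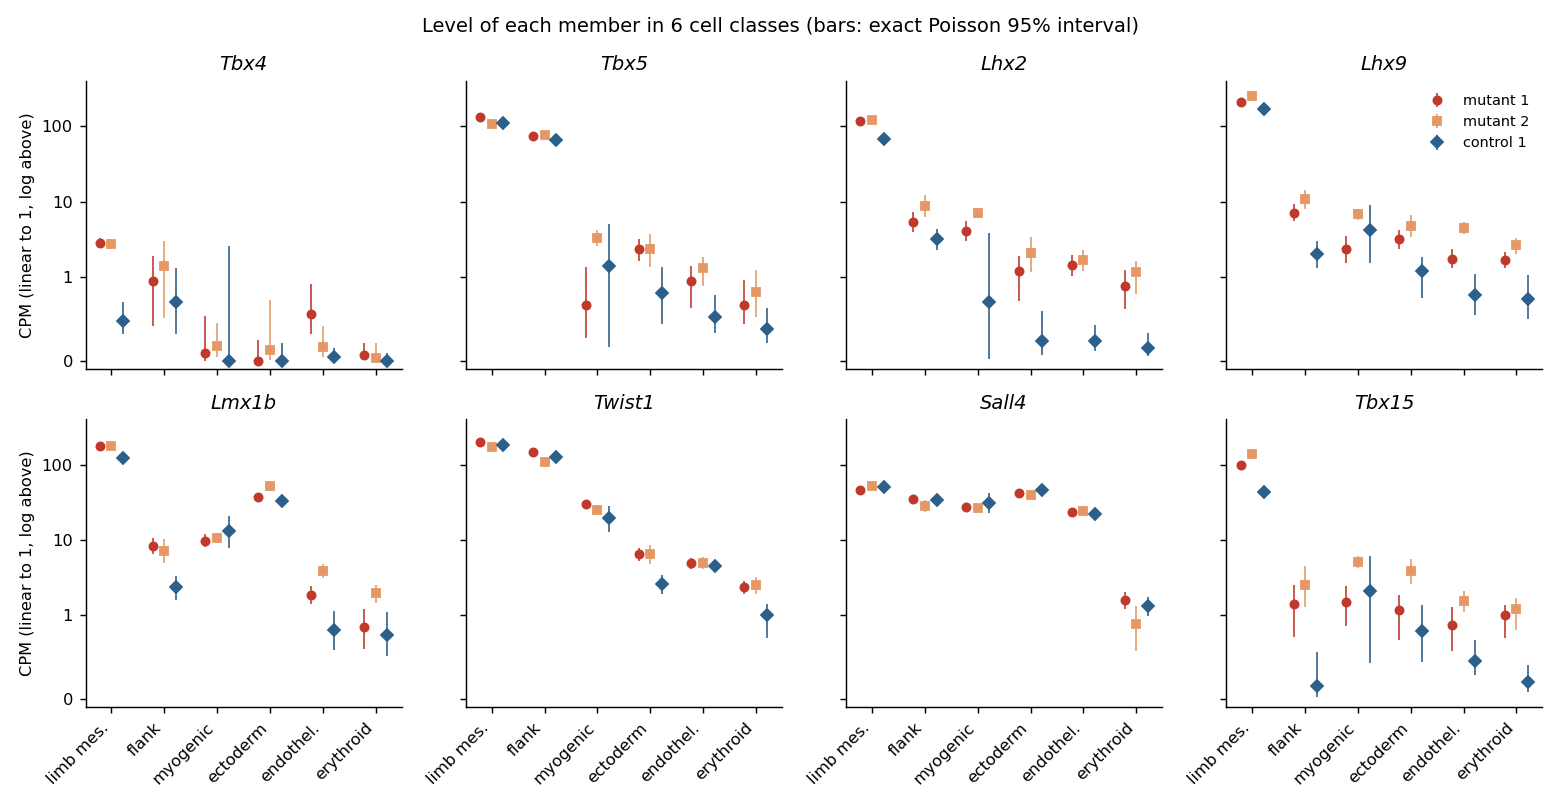
Level of each factor (CPM of the class sum, log axis) in each cell class, with 1 point for mutant 1, mutant 2 and control 1 and bars for exact 95% Poisson intervals of counting error. Limb mesenchyme is the highest class for 7 of the 8 factors in every library, which was not counted over all features.

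The comparison of mutant with control mesenchyme asks whether loss of Esco2 moves the limb field factors in the cells where Cre acts. Tbx15 was higher in the mutants, and Tbx4, too low for the 5 CPM limit on the mean level, was higher in a further fit with a limit of 1 CPM. The other 6 factors did not pass the test. With the 5 CPM limit, 137 of 10134 genes were called with edgeR's quasi-likelihood test at a Benjamini-Hochberg adjusted p under 0.05, a background of 1.35%, with 0.888% higher and 0.464% lower. The list of factors had 1 called member of 7 tested, a median log2 fold change of 0.37 and 71.4% of values above 0, beside a median of -0.01 and 48.1% above 0 over all genes tested. With 1 control library the fit has 1 residual degree of freedom and takes the control to vary as the mutants do, and an exact permutation test of 2 libraries against 1 cannot go below p = 0.333.

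Among the T-box factors, Tbx5 (chr5:119832668-119885219, plus strand) was at 133 CPM in mutant 1 and 107 CPM in mutant 2, against 113 CPM in control 1. The control lay between the mutants, the log2 fold change was 0.03 with an SE of 0.37, and the edgeR adjusted p was 1.00. At equal depth, 70.0% and 61.2% of mutant mesenchyme cells had a Tbx5 UMI, against 56.3% of control cells.

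Tbx15 (chr3:99240381-99354259, plus strand) was at 101 CPM in mutant 1 and 138 CPM in mutant 2, against 43.4 CPM in control 1. Both mutants lay above the control by more than the gap between them. The log2 fold change was 1.41 with an SE of 0.38, and the edgeR adjusted p was 0.0209. Cells with a Tbx15 UMI made up 38.2% of mutant 1 and 49.4% of mutant 2 mesenchyme at equal depth, against 19.6% of control mesenchyme, and without thinning 49.5 and 62.7%, against 26.3%. The call was lost with the ectoderm fit's prior degrees of freedom, which let the spread differ between genes (adjusted p 1.00), at a clustering resolution of 0.5 (log2 0.99, adjusted p 0.443) and without mesenchyme cluster 12 (log2 1.45, adjusted p 0.0659), within a range of 6.85e-04 to 1.00 over the alternatives with a test. The annotation also has an antisense gene at Tbx15, Gm43120, and no source used here says whether counting used strand.

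Tbx4 (chr11:85886422-85916097, plus strand) was rare throughout. It had 152 UMIs (2.84 CPM) in mutant 1 and 294 UMIs (2.74 CPM) in mutant 2, against 27 UMIs (0.480 CPM) in control 1. Both mutants were alike and the control lay below them, and mesenchyme cells with a Tbx4 UMI at equal depth made up 2.68 and 2.59%, against 0.451%. With the limit at 1 CPM the log2 fold change was 2.39 with an SE of 0.47 and an edgeR adjusted p of 4.98e-05, in a fit that called 359 of 13169 genes (2.73%, 1.79% higher). Most of the mutant UMIs came from 1 cluster, described below, and without it the log2 fold change was 1.31 with an adjusted p of 0.410. The call was also lost with the ectoderm fit's prior degrees of freedom, at an adjusted p of 0.556. Over the alternatives the adjusted p reached down to 1.76e-07. A RefSeq promoter window of Tbx4, which falls inside the annotated gene, is shown because its gene stood apart in that cluster. It lies at chr11:85896515-85896764 in GRCm38.p6, plus strand, and the capitals mark the 1 match found in it, CAGATG read on the other strand, 111 to 106 bases before the RefSeq start.
Tbx4: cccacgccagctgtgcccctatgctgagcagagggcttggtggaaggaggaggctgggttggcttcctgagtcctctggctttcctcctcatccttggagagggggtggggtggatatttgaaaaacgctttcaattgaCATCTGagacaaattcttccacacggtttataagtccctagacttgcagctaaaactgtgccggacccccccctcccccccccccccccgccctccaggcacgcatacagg

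The motifs searched on both strands of the 250 bases before each start were TAATTA, a core bound by homeodomain proteins, AGGTGTGA, a T-box site, CATATG and CAGATG, E boxes of the kind that Twist1 binds, and the p53 half-site. Matches stood in 4.84, 1.12, 3.46, 14.4 and 7.13% of 32851 RefSeq promoters of the same length. The table held promoters of Tbx4, Lhx2, Lhx9, Lmx1b and Twist1. None but that of Tbx4 had a match, which says only that these letters are not in these windows. The windows of Tbx4 and Lhx9 lie inside the annotated genes. That of Lmx1b, chr2:33641099-33641348, lies upstream of the annotated 5′ end at 33640511 without reaching it. The bases directly before the annotated 5′ ends of Tbx4, Lhx9 and Lmx1b were thus not searched.

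Of the LIM-homeodomain factors, Lhx2 (chr2:38339281-38369733, plus strand) was at 118 CPM in mutant 1 and 120 CPM in mutant 2, against 67.7 CPM in control 1. The mutants were close together above the control, but the log2 fold change of 0.75 (SE 0.37) had an edgeR adjusted p of 0.921. Lhx9 (chr1:138825186-138848577, minus strand) was at 211 CPM in mutant 1 and 254 CPM in mutant 2, against 172 CPM in control 1, with a log2 fold change of 0.37 (SE 0.40, edgeR adjusted p 1.00). Lmx1b (chr2:33560965-33640511, minus strand) was at 179 CPM in both mutants, against 123 CPM in control 1, with a log2 fold change of 0.48 (SE 0.39, edgeR adjusted p 1.00). All 3 were thus higher in both mutant libraries without passing the test. The shares of cells had the same order. At equal depth, Lhx2 UMIs were in 47.7 and 57.8% of mutant cells and 37.4% of control cells, Lhx9 UMIs in 63.9 and 73.9%, against 55.5%, and Lmx1b UMIs in 47.8 and 52.1%, against 36.3%.

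Lhx2 and Lhx9, close relatives, were often found in the same cells. Among mesenchyme cells with an Lhx2 UMI, 86.2% of mutant 1, 88.2% of mutant 2 and 81.9% of control 1 also had an Lhx9 UMI. Among cells without one the shares were 43.5, 54.3 and 39.6%. Thinned cells that lack a UMI may still hold the transcript. Their promoters are shown because the pair moved together over cells and clusters, and no motif match is marked in them. The Lhx9 window is at chr1:138842445-138842694 on the minus strand and the 2 Lhx2 windows are at chr2:38339031-38339280 and chr2:38351058-38351307 on the plus strand, all in GRCm38.p6 from RefSeq.
Lhx9: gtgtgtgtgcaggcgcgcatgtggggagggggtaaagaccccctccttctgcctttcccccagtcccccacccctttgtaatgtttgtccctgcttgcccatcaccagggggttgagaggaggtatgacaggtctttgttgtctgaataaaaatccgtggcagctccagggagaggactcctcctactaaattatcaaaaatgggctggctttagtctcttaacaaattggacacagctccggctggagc
Lhx2, upstream start: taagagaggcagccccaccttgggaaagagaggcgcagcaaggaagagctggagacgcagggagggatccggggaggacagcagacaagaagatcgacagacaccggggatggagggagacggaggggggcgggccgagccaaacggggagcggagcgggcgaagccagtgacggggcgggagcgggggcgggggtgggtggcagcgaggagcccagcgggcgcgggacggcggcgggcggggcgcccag
Lhx2, downstream start: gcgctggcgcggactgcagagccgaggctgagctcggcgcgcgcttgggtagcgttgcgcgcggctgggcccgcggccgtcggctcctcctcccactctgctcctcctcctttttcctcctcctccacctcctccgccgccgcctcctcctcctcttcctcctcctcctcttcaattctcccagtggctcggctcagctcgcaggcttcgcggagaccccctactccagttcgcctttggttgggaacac
Guanine and cytosine made up 72.8 and 68.4% of the Lhx2 windows and 53.6% of the Lhx9 window.

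Twist1 (chr12:33957671-33959829, plus strand) was at 203 CPM in mutant 1 and 171 CPM in mutant 2, against 181 CPM in control 1, and the control lay between the mutants. Its log2 fold change was -0.02 (SE 0.39, edgeR adjusted p 1.00), and 71.7 and 73.6% of mutant cells had a UMI at equal depth, against 72.9% of control cells. Sall4 (chr2:168748332-168767943, minus strand) was at 46.9 CPM in mutant 1 and 52.5 CPM in mutant 2, against 50.3 CPM in control 1, again with the control between the mutants. Its log2 fold change was -0.08 (SE 0.31, edgeR adjusted p 1.00), and 34.9 and 35.3% of mutant cells had a UMI, against 33.6% of control cells. The SEs of both leave room for changes of either sign.

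**Figure D2:**
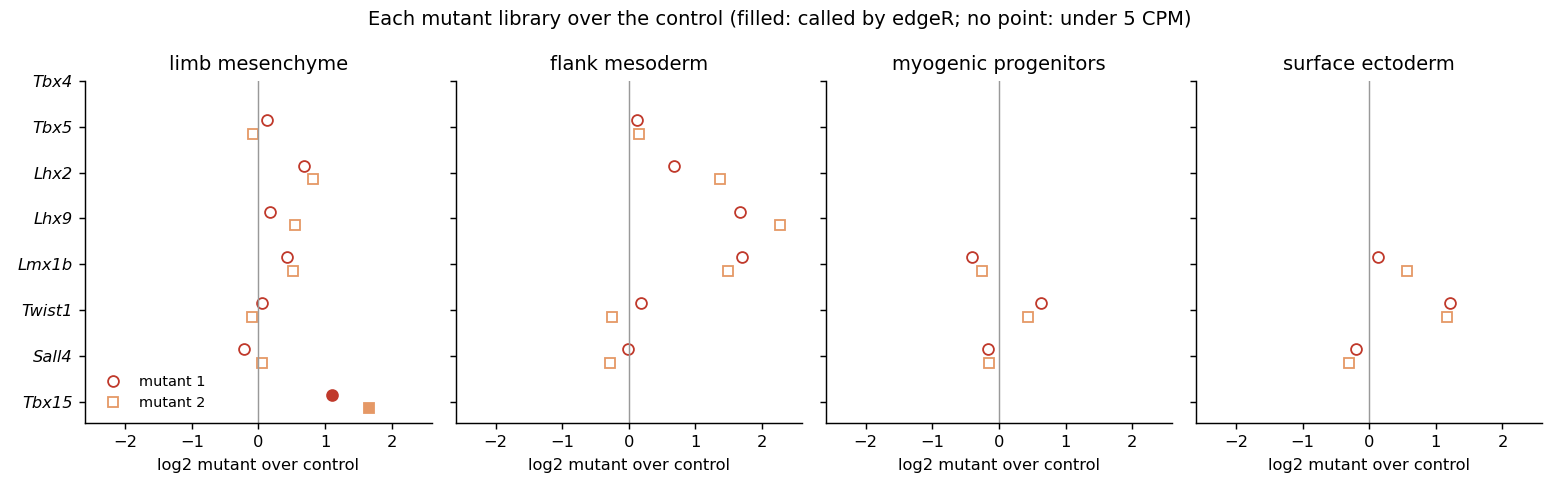
Log2 ratio of CPM, scaled as in the edgeR fit, of mutant 1 over control 1 and of mutant 2 over control 1. Limb mesenchyme, flank, myogenic cells and ectoderm are drawn, each with the factors that passed the 5 CPM limit there. In limb mesenchyme both mutants lie above 0 for Lhx2, Lhx9, Lmx1b and Tbx15 and on both sides of 0 for Tbx5, Twist1 and Sall4. Tbx4 was under the limit and has no point.

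Counted over the factors, 7 of 8 had a higher share of positive mesenchyme cells in both mutants than in the control, all but Twist1. In flank 6 did, in ectoderm 7, in myogenic cells 5, and in endothelial and erythroid cells 5 each. When at least 2 UMIs were asked for, the count was 6 in mesenchyme, 3 in flank, 1 in ectoderm, 2 in myogenic cells, 2 in endothelial and 1 in erythroid cells. No test was made of these counts. The same was not counted over all features, so they are not read as a result about the factors. Depth before thinning was higher in the mutants in mesenchyme, with medians of 33450 and 49351 UMIs, against 31147 UMIs in control 1, and lower in ectoderm, with 30453 and 24084 UMIs, against 52963 UMIs. Thinning left out 122 and 205 mesenchyme cells of the mutants and 220 of the control.

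**Figure D3:**
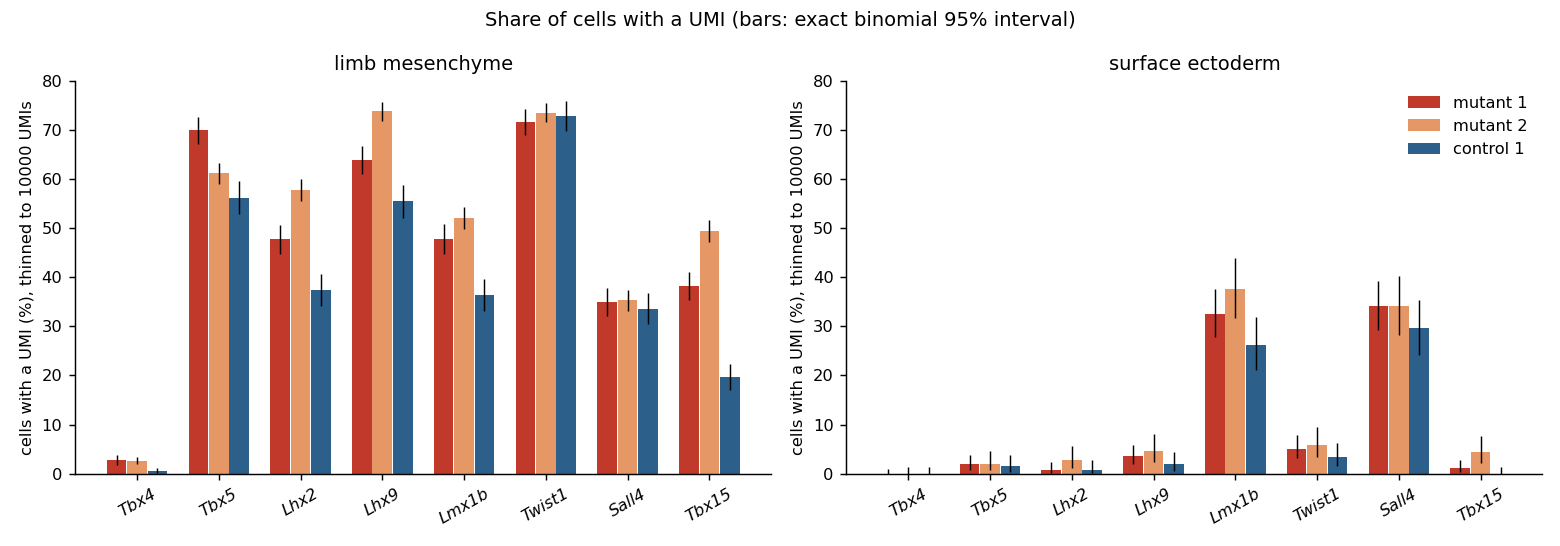
Share of cells with at least 1 UMI of each factor after thinning to 10000 UMIs a cell. Limb mesenchyme and surface ectoderm of each library are drawn, with exact 95% binomial intervals of counting error. Tbx15 in mesenchyme stands at 38.2 and 49.4% in the mutants and 19.6% in the control, while Twist1 stands between 71.7 and 73.6% in all libraries.

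Mesenchyme was made of 7 clusters, and the factors differed in how strongly they varied among them. Among clusters of at least 50 cells, the highest Tbx15 level was 108-fold the lowest in mutant 1, 63.6-fold in mutant 2 and 123-fold in control 1. For Lmx1b it was 25.3-fold, 20.2-fold and 34.3-fold, and both peaked in cluster 4. There, Lmx1b was at 552 CPM in mutant 1 and 529 CPM in mutant 2, against 504 CPM in control 1. In cluster 7 it was at 21.8 and 29.4 CPM in the mutants and 14.7 CPM in the control. Cluster 4 thus stood far above cluster 7 in all libraries. Tbx15 was likewise higher in cluster 4 than in cluster 7, with 297 and 478 CPM in cluster 4 of the mutants, against 178 CPM in the control, and 11.7 and 7.52 CPM in cluster 7 of the mutants, against 3.38 CPM in the control. In cluster 13 the pair parted. Lmx1b was at 45.03 and 64.3 CPM there in the mutants, against 37.4 CPM in the control, above its level in cluster 7, while Tbx15 was at 2.75 and 13.6 CPM, against 1.44 CPM, its lowest cluster in mutant 1 and control 1.

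Detection over cells is given without a test. Among mesenchyme cells with an Lmx1b UMI, 58.4% of mutant 1, 67.0% of mutant 2 and 41.9% of control 1 had a Tbx15 UMI, and among cells without one 19.7, 30.3 and 6.90% did. Lhx2 and Lhx9 were lowest in cluster 13, at 9.97 and 10.0 CPM of Lhx2 in the mutants and 9.22 CPM in the control. Tbx5 was high in cluster 13, at 198 and 168 CPM, against 196 CPM, and lowest in cluster 6, at 30.1 and 34.0 CPM, against 37.3 CPM. The shares of cells with Tbx5 lay close together with and without Lhx9, at 70.8 and 68.7% in mutant 1, 61.2 and 61.4% in mutant 2, and 55.5 and 57.2% in control 1. Sall4 varied little, with a highest cluster 2.45-fold above the lowest in mutant 1, 2.23-fold in mutant 2 and 1.83-fold in control 1.

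**Figure D4:**
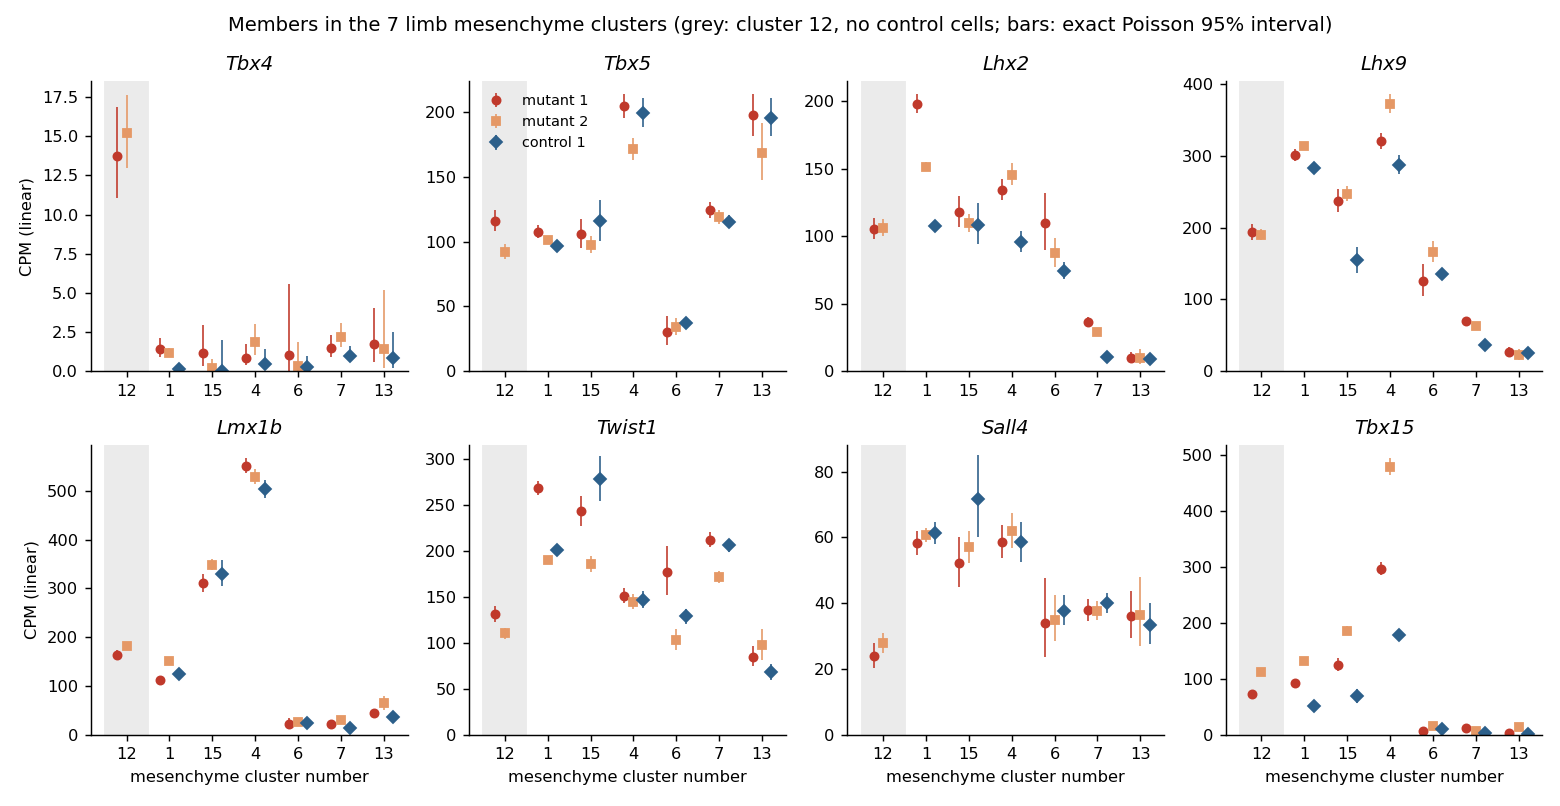
Level of each factor (CPM, linear axis) in each mesenchyme cluster with at least 20 cells in the library, for mutant 1, mutant 2 and control 1. Among clusters of at least 50 cells, Lmx1b and Tbx15 peak in cluster 4 and Tbx5 is lowest in cluster 6 in every library. In the mutants Tbx4 peaks in cluster 12, which has no control cells.

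The libraries did not fill these clusters alike. Cluster 6 held 6.48% of mutant 1 and 10.5% of mutant 2 mesenchyme cells, against 42.6% of control 1, though only 13.3% of the control's UMIs. Cluster 12 held 145 and 202 mutant cells and 0 control cells. Within the 5 clusters that had at least 50 cells in every library, Tbx4 and Lhx2 were higher in both mutants in 5, Tbx15 in 4, Lhx9 and Lmx1b in 3, Tbx5 and Sall4 in 2 and Twist1 in 1. Sall4 was lower in both mutants in 3 of them and Tbx5 in 1, and the rest were mixed. The same was not counted over all features. The count for Tbx4 rests on few UMIs, since control mesenchyme had 27 in all. In cluster 6 Tbx4 was at 1.00 and 0.337 CPM in the mutants, against 0.267 CPM in the control. Giving each of the 5 clusters the same weight, the log2 ratio of mutants to control was 1.12 for Tbx15, 0.62 for Lhx2, 0.22 for Lhx9, 0.14 for Lmx1b and 1.30 for Tbx4. These ratios have no test, and the part of the clusters' shares in the differences was not tested.

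Cluster 12 was where Tbx4 stood out. Tbx4 was at 13.7 CPM (90 UMIs) in mutant 1 and 15.2 CPM (171 UMIs) in mutant 2, which is 10.4-fold and 11.9-fold the level in the rest of the class. These cells held 59.2 and 58.2% of the mesenchyme UMIs of Tbx4 and 12.1 and 9.14% of the mesenchyme cells. The cluster was led by Ptprt, Ano3 and Cdkn1a, the last a cell cycle inhibitor and p53 target, which was at 487 and 580 CPM there and at 1.58 CPM in control mesenchyme. Pitx1, which switches on Tbx4 in the hindlimb, had 3 UMIs (0.457 CPM) and 4 UMIs (0.355 CPM) in the cluster, and Hoxc10, a hindlimb Hox gene, 0 and 1 UMI, counts close to or under the 3 UMIs that a count of 0 allows.

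The other 7 factors lay near or below the rest of the class in cluster 12. Sall4 was at 23.9 and 27.8 CPM there, 0.478-fold and 0.502-fold the rest of the class, and Twist1 at 131 and 110 CPM, 0.614-fold and 0.618-fold. Cells with a Cdkn1a UMI had a Tbx4 UMI in 9.93% of cases in mutant 1 and 12.4% in mutant 2, and cells without one in 1.51 and 1.09%. In control 1 only 10 mesenchyme cells had a Cdkn1a UMI, and 0 of these had Tbx4. The cluster was built from these cells, so its values are a description.

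The flank mesoderm class is 1 cluster named by coelomic epithelium markers, so its values may not stand for all lateral plate next to the limb. In this class 6 factors were tested and none was called, nor was any of 10306 genes (0%). Of these 10306 genes, 378 had an unadjusted edgeR p under 0.05, and DESeq2 called 8. Cre UMIs were in 5.13 and 2.20% of mutant flank cells and 0% of control cells, and Esco2 was at 15.1 and 18.1 CPM in mutant flank, against 28.4 CPM in control flank. Tbx5 was at 74.5 CPM in mutant 1 and 75.7 CPM in mutant 2, against 66.7 CPM in control 1, and Twist1 at 148 and 109 CPM, against 127 CPM. For Tbx5 the control lay below both mutants and for Twist1 between them. Sall4 was at 34.7 and 28.6 CPM, against 34.1 CPM. The LIM-homeodomain factors were low there. Lhx2 was at 5.38 and 8.82 CPM in the mutants, against 3.21 CPM in the control, with a log2 fold change of 1.03 (SE 0.45, edgeR adjusted p 0.998). Lhx9 was at 7.17 and 10.9 CPM in the mutants, against 2.03 CPM in the control, with a log2 fold change of 1.98 (SE 0.45) and an edgeR adjusted p of 0.998. Lmx1b was at 8.37 and 7.20 CPM, against 2.35 CPM, with a log2 fold change of 1.61 (SE 0.38, edgeR adjusted p 0.998). Both were above the control in both mutants, and both were called, at adjusted p of 2.08e-04 and 0.00512, when the spread was shared by all genes. Tbx15, at 1.43 and 2.55 CPM, against 0.156 CPM (2 UMIs), and Tbx4, at 0.956 and 1.39 CPM, against 0.704 CPM, were under the level limit. The limb mesenchyme markers, all 12 with UMIs, summed to 747 and 577 CPM in mutant flank and 708 CPM in control flank, and their part in the result was not tested.

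Myogenic progenitors come from the somites and migrate into the bud, and Cre was seen in 0 of 189 and 1 of 435 mutant cells. Only Lmx1b, Twist1 and Sall4 passed the level limit, and none was called, against 291 of 10185 genes (2.86%, with 0.776% higher and 2.08% lower). Twist1 was at 30.04 CPM in mutant 1 and 25.2 CPM in mutant 2, against 19.5 CPM in control 1, with a log2 fold change of 0.53 and an edgeR adjusted p of 0.398. Lmx1b was at 9.82 and 10.6 CPM, against 13.2 CPM, and Sall4 at 27.8 and 26.8 CPM, against 31.3 CPM, neither past the test (edgeR adjusted p 0.705 and 0.811). Their log2 fold changes, -0.32 and -0.16, turned to 0.088 and 0.055 under the stricter cell filter, and that of Lmx1b to 0.44 with doublets kept. The other factors were lower in level and had at most 6 UMIs each in the control. Lhx2 was at 4.10 and 7.15 CPM, against 0.696 CPM (1 UMI), and Tbx5 at 0.667 and 3.33 CPM, against 1.39 CPM (2 UMIs). Lhx9 was at 2.38 and 6.79 CPM, against 4.18 CPM, Tbx15 at 1.53 and 5.11 CPM, against 2.09 CPM, and Tbx4 at 0.0954 and 0.178 CPM, against 0 UMIs. The control values rest on 42 cells. Of these, 18 lay in cluster 23, against 3 of 189 and 29 of 435 mutant cells. Control cells there had a median of 15200 UMIs, against 35674 UMIs in cluster 8, the other myogenic cluster. The 12 limb mesenchyme markers summed to 716 and 748 CPM in mutant and 521 CPM in control myogenic cells. The part of the cluster make-up and of these markers in the result was not tested. The difference between the mutant effect in mesenchyme and that in myogenic cells was 0.81 for Lmx1b (log2, edgeR adjusted p 0.0924) and -2.28 for Lhx2 (adjusted p 0.0775), which rests on 1 control UMI, neither past the threshold, where 23.7% of 10248 genes were called.

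Surface ectoderm lies over the mesenchyme and makes the signals that these factors answer. Only Lmx1b, Sall4 and Twist1 passed the level limit, and none of these 3 was called, nor was any of 10655 genes (0%), though 1119 had an unadjusted p under 0.05 and DESeq2 called 34. Lmx1b was at 37.4 CPM in mutant 1 and 51.4 CPM in mutant 2, against 32.6 CPM in control 1, with a log2 fold change of 0.35 (SE 0.23, edgeR adjusted p 0.604). Sall4 was at 42.5 and 40.2 CPM, against 46.3 CPM, with a log2 fold change of -0.24 (SE 0.15, edgeR adjusted p 0.583). Twist1 was at 6.51 and 6.46 CPM, against 2.603 CPM, with a log2 fold change of 1.19 (SE 0.30, edgeR adjusted p 0.465). With the spread shared by all genes Twist1 was called. The remaining 5 factors were not tested there. Lhx9 was at 3.19 and 4.78 CPM, against 1.21 CPM, Tbx5 at 2.33 CPM in both mutants, against 0.810 CPM, and Lhx2 at 1.20 and 2.07 CPM, against 0.231 CPM. Tbx15 was at 1.20 and 3.88 CPM, against 0.810 CPM, and Tbx4 had 0 and 1 UMI, against 0 UMIs.

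RNA set free by broken mesenchyme cells can give UMIs in any droplet, so each ectoderm level was set beside that of mesenchyme and of erythroid cells of the same library. Lmx1b in ectoderm reached 20.9% of its mesenchyme level in mutant 1, 28.8% in mutant 2 and 26.5% in control 1, and Sall4 reached 90.7, 76.5 and 92.2%. In erythroid cells Lmx1b was at 0.864 and 1.95 CPM in the mutants and 0.768 CPM in the control, and Sall4 at 1.58 and 0.902 CPM, against 1.33 CPM. Both factors were thus many times higher in ectoderm than in erythroid cells, and Sall4 was also at 23.3 and 24.4 CPM in mutant and 22.0 CPM in control endothelium. A mesenchyme panel of 11 genes, used as a yardstick, had a median ectoderm level of 1.85 and 4.70% of mesenchyme in the mutants and 1.74% in the control. Lmx1b and Sall4 were the only factors above that median in every library, also in the 118 and 124 mutant and 105 control ectoderm cells without a UMI of Prrx1, Prrx2 or Pdgfra. The panel includes genes that ectoderm makes itself, such as Meis2 at 119 and 179%, against 111%, and Msx1 at 112 and 75.4%, against 122%. Such genes raise the median. Beside Prrx1 alone, at 1.06 and 1.83%, against 0.657%, Twist1, Tbx5, Lhx9 and Tbx15 also lay above in every library, and Lhx2 lay below. No test was made of these gaps. Prrx2 was at 42.5 and 8.27 CPM in mutant ectoderm, against 24.7 CPM in control ectoderm, and Pdgfra at 17.6 and 34.2 CPM, against 4.17 CPM. In erythroid cells Prrx2 was at 1.63 and 0.827 CPM, against 0.692 CPM, and Pdgfra at 0.617 and 1.01 CPM, against 0.307 CPM. In the ectoderm cells without UMIs of Prrx1, Prrx2 and Pdgfra, the panel gene Fgf10 was still at 2.81 and 4.64 CPM in the mutants, against 2.13 CPM in the control. Whether those cells lack mesenchyme RNA was not tested, and they are not taken as free of it.

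**Figure D5:**
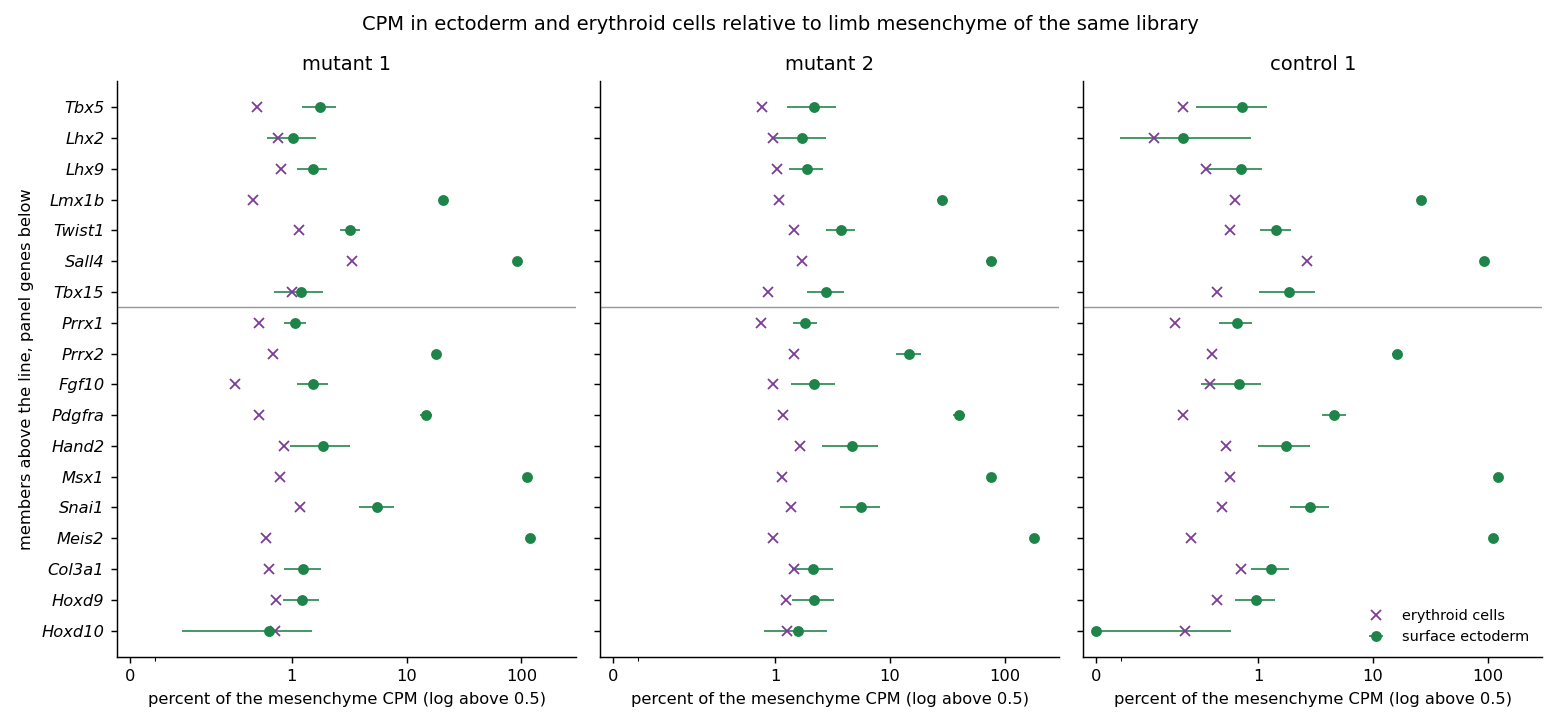
Level in surface ectoderm as a percentage of the level in limb mesenchyme of the same library (log axis), with erythroid cells beside it. The factors other than Tbx4 and the mesenchyme panel are drawn for mutant 1, mutant 2 and control 1. Lmx1b (20.9, 28.8 and 26.5%) and Sall4 (90.7, 76.5 and 92.2%) lie above the panel median in every library.

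Shares of cells gave the same split. At equal depth, 32.5 and 37.6% of mutant ectoderm cells and 26.2% of control ectoderm cells had an Lmx1b UMI, while erythroid cells had one in 1.23 and 1.63%, against 1.34%. For Sall4 the shares were 34.1% in both mutants and 29.6% in control ectoderm, beside 1.05 and 0.930%, against 1.88%, in erythroid cells. The order of mutants and control in ectoderm depended on the setting. The Sall4 share was lower in both mutants at 5000 UMIs, without thinning and when at least 2 UMIs were asked for. That of Lmx1b was lower in both without thinning and higher in the other settings. Median depths before thinning were 69287 and 61373.5 UMIs in mutant and 100822 UMIs in control erythroid cells. Twist1 was at 5.11 and 5.88%, against 3.37%, in ectoderm, beside 4.04 and 3.26%, against 0.806%, in erythroid cells. Lhx2, Lhx9, Tbx5 and Tbx15 were in at most 4.71% of ectoderm cells and at most 3.02% of erythroid cells of any library. Twist1 and these 4 factors were thus found in few cells of both classes, and no expression in ectoderm is read from their shares.

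The UMIs in erythroid cells were themselves higher in the mutants. Lhx2 in erythroid cells was at 0.888 and 1.17 CPM in the mutants, against 0.154 CPM in the control, and Prrx1, a defining mesenchyme gene, was at 2.71 and 3.76 CPM, against 1.26 CPM. As a share of the mesenchyme level of the same library, 9 of 11 panel genes were higher in both mutants in erythroid cells and 8 of 11 in ectoderm. The part of such RNA in the ectoderm differences of Twist1, Lhx2, Lhx9, Tbx5 and Tbx15 was not tested. The difference between the mutant effect in mesenchyme and in ectoderm did not pass the test for any of the 7 factors tested, with log2 values of -1.70 for Lhx2, -1.37 for Tbx5, -1.26 for Twist1 and -1.22 for Lhx9 at edgeR adjusted p between 0.210 and 0.547, where 1.5% of 10632 genes were called.

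Within ectoderm, Lmx1b was uneven. Among cells with a UMI of En1, the ventral ectoderm factor that represses Wnt7a, 23.3% of mutant 1, 25.0% of mutant 2 and 20.2% of control 1 cells had Lmx1b. Among cells without En1 the shares were 38.7, 45.8 and 29.5%. The exact 95% intervals with and without En1 did not overlap in the mutants and overlapped in the control, and no test was made. With Fgf8, the ridge signal, the shares were 37.5, 50.5 and 33.9%, and without it 29.7, 28.9 and 20.6%. With Wnt7a they were 41.8, 41.9 and 33.8%, and without it 30.5, 36.3 and 23.5%.

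Of 61 other genes of the limb field network, 53 were tested in mesenchyme, and 1 was higher and 2 were lower, beside the 1.35% background. Hand1, a partner of Twist1 that marks flank and heart, was at 5.47 and 2.40 CPM in the mutants, against 20.98 CPM in the control (log2 -2.42, SE 0.29, edgeR adjusted p 4.58e-14). Msx2, a homeodomain factor of limb mesenchyme and ridge, was at 24.1 and 29.5 CPM, against 51.9 CPM (log2 -0.95, SE 0.28, edgeR adjusted p 0.0438). Lmo1, which binds the same Ldb cofactors as the LIM-homeodomain factors, was at 19.1 and 13.1 CPM, against 7.54 CPM (log2 1.09, SE 0.30, edgeR adjusted p 0.0257). These CPM are scaled by the TMM factors of the fit. The network had a median log2 fold change of -0.07 and 37.7% of values above 0. By group, 1 of 8 LIM cofactors and 1 of 8 Twist1 partners and inhibitors were called and 0 of 7 paralogs, and no hindlimb identity gene passed the level limit. In ectoderm 0 of 40 were called, and the largest differences were those of Prrx1 (5.57 and 9.01 CPM, against 2.79 CPM), Irx5 (log2 0.71) and Id3 (log2 -0.67). In myogenic cells 3 of 43 were called, named after their values were seen, with Prrx1 higher at 21.05 and 31.4 CPM, against 8.97 CPM, and Meis1 and Lmo2 lower.

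The genes most like each factor were found by Pearson's r of log2(CPM + 1) over 15 sums, 5 classes in 3 libraries, among 9063 genes, which is a description of sums that share cells and depth. Tbx5 was closest to Fgf10 (r = 0.997), Ddr2 and Twist1. Lhx2 was closest to Gpc5 (0.989) and Lhx9 (0.986), and Lhx9 to 2600014E21Rik and Lhx2. Tbx15 was closest to Hoxd10 (0.990), 2600014E21Rik and Shox2, and Twist1 to Lix1 (0.994). Lmx1b was closest to Dennd1a (0.979) and C130021I20Rik (0.968), the second of which lies 682 bases from Lmx1b, and Sall4 to Fgd1 (0.995). Tbx4 had the lowest best match, Tbx18 (0.891).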

How the data were processed

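Single-cell RNA of forelimb buds was counted in 3 libraries. The values in the deposited matrices are raw UMI counts per gene and barcode, written by Cell Ranger 7.0.0 per the file headers. Per the submitters' processing notes the build was mm10 and Seurat 4.0.0 was used, with no role stated. The matrices of mutant 1, mutant 2 and control 1 hold 7219, 8755 and 6527 barcodes and 178159788, 225032823 and 202581488 UMIs.

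Barcodes with at least 500 genes and under 10% mitochondrial UMIs were kept, and Scrublet doublets (96, 122 and 41) were removed. Cells were clustered in scanpy 1.11.5 without integration (2000 variable genes without the 8 factors, 30 components, 15 neighbours, Leiden resolution 1.0). A cluster was named from at least 3 markers of a list that stood at 20 CPM or more and were raised by a log2 of 1 or more. Markers among its 10 leading genes also counted, so the list used was not always that of highest share. Both myogenic clusters (8 and 23) were named by the myogenic list although the somite list had the highest share. A cluster stayed unnamed where another list lay within 0.05 in share. It also stayed unnamed where its median depth was under 33.3% of its library's. Coelomic markers counted as flank, and these limits were set after clusters were seen. The factors, lists and named genes were chosen with earlier results of these data known. The text names the 8 factors in mesenchyme, flank, myogenic cells and ectoderm, and of the network list every gene called in mesenchyme or ectoderm and the 3 of largest absolute log2 fold change.

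Counts were summed per class and library and tested with edgeR 4.0.16 (TMM, mean of at least 5 CPM, Benjamini-Hochberg). Shares carry exact Clopper-Pearson 95% intervals, and these and the limits from a count of 0 (3 counts) cover counting error only. Genes were matched by ID to GENCODE M21 (GRCm38) for 30934 of 31054 features, and promoters came from RefSeq. For each factor 0 of the 60-base words in its last 500 transcript bases recurred in other genes. The tests were checked on simulated counts. Alternatives are given in the closing section.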

Additional observations from a re-analysis of the deposited data

How the results depend on the processing

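No paired analysis was possible because the mutant and control libraries share fewer than 2 replicate numbers. Leaving out 1 mutant library leaves 1 library a genotype and so gives values without a test; the log2 fold change then lay between 1.10 and 1.66 for Tbx15 in mesenchyme, -0.084 and 0.13 for Tbx5, -0.21 and 0.047 for Sall4, -0.098 and 0.056 for Twist1, and -0.26 and 0.18 for Twist1 in flank. The single control library could not be left out.

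In mesenchyme (137 genes, 1 factor called), DESeq2 called 63 genes, a limit of 1 CPM 359, no filter 685, the ectoderm fit's prior degrees of freedom 0 (214 at an unadjusted p under 0.05), a stricter cell filter 217, and leaving out cluster 12 called 42. The factors called were 2 at 1 CPM and with no filter (Tbx4 and Tbx15) and 0 with the ectoderm prior, at resolution 0.5 and without cluster 12. In flank (0 genes), DESeq2 called 8, no filter 84, a spread shared by all genes 365 with 2 factors (Lhx9, Lmx1b), and resolution 0.5 called 2 (Cdkn1a, Eif3j2). In myogenic cells (291 genes), DESeq2 and the stricter filter called 84 each, no TMM factors 105, 1 CPM 155, no filter 0 (1650 at an unadjusted p under 0.05), the shared spread 629 and resolution 2.0 called 169. In ectoderm (0), DESeq2 called 34, no filter 546 and the shared spread 1062 with 1 factor (Twist1). In endothelium (0) DESeq2 called 47 and the shared spread 975, and in erythroid cells (0) 19 and 297, with 238 and 4 factors (Lhx2, Lhx9, Tbx15, Twist1) under no filter. At 1 CPM the tests of differences between mesenchyme and ectoderm, flank and myogenic cells called 272, 3 (Anks1b, Ano3, Xist) and 988 genes. The mesenchyme fit had infinite prior degrees of freedom and the others 2.14 to 18.2, so counts of calls are not comparable between classes.

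Factors with a higher share in both mutants were 6 in mesenchyme (7 at 1 UMI) and fell to 3 in flank, 2 in myogenic cells, 1 in ectoderm, 2 in endothelium and 1 in erythroid cells when 2 UMIs were asked for, and to 3 in myogenic cells at 5000 UMIs.

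Some log2 fold changes turned sign, none of which had passed the test. Tbx5 in mesenchyme was -0.028 with no filter, -0.030 with the stricter filter, -0.062 at resolution 0.5 and -0.035 with clusters weighted equally, an alternative chosen after seeing the data. Twist1 in mesenchyme was 0.050 with no TMM factors, 0.0047 at resolution 0.5, 0.045 without cluster 12 and 0.091 with equal weights, and Sall4 was 0.0087 without cluster 12. Twist1 in flank was 0.016 with no TMM factors. Myogenic Lmx1b was 0.088 and Sall4 0.055 under the stricter filter, and Lmx1b was 0.44 with doublets kept. The cause of these moves was not tested.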

Other observations

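Tbx4 UMIs were also found in cluster 14, which stayed unnamed because its cells were shallow. It had 7 UMIs in 99 cells of mutant 1 (21.2 CPM) and 7 UMIs in 117 cells of mutant 2 (24.2 CPM), against 0 UMIs in 33 cells of control 1. The exact 95% Poisson intervals, which cover counting error only, were 8.53 to 43.7 CPM, 9.71 to 49.8 CPM and 0 to 13.8 CPM, and they overlap. In the other unnamed clusters with at least 20 cells in every library, Tbx4 had at most 2 UMIs in a library.

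Pitx1, the hindlimb factor upstream of Tbx4, was at 1.20 and 0.503 CPM in mutant mesenchyme and 5.81 CPM in control mesenchyme. In the flank cluster it was at 38.4 CPM in mutant 1 and 1.39 CPM in mutant 2, against 40.9 CPM in control 1, so the mutant libraries differed from each other there.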
